A study of Mus musculus with 31 samples.

Results

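The Fos and Jun family factors examined here were 8 genes, Fos, Fosb, Fosl1, Fosl2, Jun, Junb, Jund and Atf3, chosen by name from the 52636 genes of the table. They were measured by RNA-seq in punches of the right caudate putamen (CPu, the dorsal striatum) of 31 mice labelled female, aged 8 to 11 weeks, with the strain labelled C57BL/6NTac-Brd1. The study asked how heterozygous deletion of Brd1, a chromatin reader, and the tricyclic antidepressant imipramine (IMN) bear on expression in this tissue. The groups were WT vehicle (n = 8), Brd1+/- vehicle (n = 7), WT IMN at 10 mg/kg (n = 8) and Brd1+/- IMN at 10 mg/kg (n = 8). Brd1+/- mice carried the targeted deletion on one allele in every cell, so that no cell type is singled out. Vehicle was saline. All mice, controls included, were injected under the skin on consecutive days, passed through tail suspension, open field and forced swim tests, and were killed an hour after the swim, so no group shows the resting level.

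AP-1 is a dimer that binds DNA through leucine zippers. Jun proteins can pair with each other or with a Fos protein, whereas Fos proteins need a Jun partner, and the makeup of the dimer shapes what it does. Fos, Fosb, Junb and Atf3 are immediate-early genes, whose transcription rises within minutes of synaptic activity through CREB and serum response factor and then decays. Jund is held at a steadier level. In striatal projection neurons these genes respond to dopamine and glutamate, and Fosb gives rise to the stable splice form known as deltaFosB, which TPM per gene does not separate from full-length Fosb.

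Promoter windows of 7 members were found in RefSeq (GRCm38.p6), each from 250 bases before to 50 bases after the gene start, and Fosl1 was not among them. The RefSeq start is that of the GENCODE annotation for Fos and Jun, lies close to it for Fosb and Junb, and is another start for Fosl2, Jund and Atf3, so that the windows of these 3 need not be the promoter in use in this tissue. The 150 bases before the start are shown for the immediate-early members Fos, Fosb and Junb, since the results turn on Fos and on its ratio to these members. Capitals mark TGACG, the core of the site that CREB binds, and TATAAA.
Fos, chr12:85473740-85473889, plus strand: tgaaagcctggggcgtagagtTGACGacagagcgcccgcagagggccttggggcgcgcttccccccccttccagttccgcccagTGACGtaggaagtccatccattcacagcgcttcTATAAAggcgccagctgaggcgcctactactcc
Fosb, chr7:19310046-19310195, minus strand: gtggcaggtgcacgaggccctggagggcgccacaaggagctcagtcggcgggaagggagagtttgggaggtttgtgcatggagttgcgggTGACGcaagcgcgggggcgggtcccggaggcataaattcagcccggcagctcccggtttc
Junb, chr8:84978749-84978898, minus strand: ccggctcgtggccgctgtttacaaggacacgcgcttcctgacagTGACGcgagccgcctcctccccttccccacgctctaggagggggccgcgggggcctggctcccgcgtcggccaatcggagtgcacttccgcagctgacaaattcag

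Searched on both strands, TGACG lay in 4 of the 7 windows (Fos, Fosb, Junb and Atf3) and in 21% of 27025 promoters of the same length. Fos held 2 matches, at 129 to 125 and 66 to 62 bases before the start, and was the only one of the 7 with more than 1. The Fosb match lay at 60 to 56 bases, that of Junb at 106 to 102 and that of Atf3 at 7 to 3. The full palindrome TGACGTCA, which contains TGACG, was in 0 of 7 windows and in 1.88% of all promoters. The AP-1 site itself (TGACTCA or TGAGTCA) was in 0 of 7 and in 5.17%, and the CArG box bound by serum response factor in 0 of 7 and in 1.57%. TATAAA was in 2 of 7 windows and in 14.2% of promoters. It lay 33 to 28 bases before the Fos start and after the start in Junb. These are matches of letters within the window and show no binding. Sites farther than 250 bases before the start were not searched, so the counts of 0 say nothing about them.

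Some libraries stood apart. Brd1 was 22.5 TPM ± 2.97 (SD, n = 8) in WT vehicle, 13.4 ± 2.02 (n = 7) in Brd1+/- vehicle, 19.9 ± 2.67 (n = 8) in WT IMN and 12.7 ± 1.04 (n = 8) in Brd1+/- IMN, which matches the genotype labels. The sum of 10 striatal neuron markers, among them Drd1, Drd2 and Ppp1r1b, ranged from 8425 to 9819 TPM in Brd1+/- vehicle, from 5050 to 9300 in WT IMN and from 6776 to 9749 in Brd1+/- IMN, but from 275.7 to 10470 in WT vehicle. The sum of 10 cortical neuron markers, among them Slc17a7 and Neurod6, reached 2253 TPM in WT vehicle and 1143 in WT IMN, against 321.5 in Brd1+/- vehicle and 466.1 in Brd1+/- IMN. Of these markers, Emx1 was at 0 in at least 1 mouse of WT vehicle, of WT IMN and of Brd1+/- IMN. WT vehicle mice 1, 2, 3, 4, 5 and 7 had a cortical marker score of 4.96 to 6.26, as against 1.39 and 1.50 in mice 6 and 8. Mice 1 and 2 also had striatal scores of 6.02 and 3.20, where the lowest in Brd1+/- vehicle was 8.87. WT IMN mice 5 and 8 scored 5.07 and 4.68 for cortical markers. The library of WT vehicle mouse 7, labelled female, summed to 26.8 TPM over 4 Y-linked genes, against at most 0.19 in any other mouse. The results are therefore also given without the 8 mice of cortical score 4.5 or more and without WT vehicle mouse 1 and mouse 2, sets chosen after the data were seen.

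The 8 members differed widely in level. TPM is scaled to gene length, so their levels can be set side by side. Over all 31 mice Junb was highest at 82.8 TPM ± 20.2 (SD), followed by Jund at 67.1 ± 11.4, Jun at 18.2 ± 5.61, Fosb at 14.8 ± 6.10, Fos at 13.1 ± 13.5, Fosl2 at 12.6 ± 5.03, Fosl1 at 3.73 ± 0.542 and Atf3 at 0.306 ± 0.149. Within each mouse Jund exceeded Jun in 31 of 31, Fosl2 exceeded Fosl1 in 31 of 31 and Fosl1 exceeded Atf3 in 31 of 31. Junb exceeded Jund in 27 of 31 and Fosb exceeded Fos in 24 of 31, whereas Jun exceeded Fosb in only 20 of 31. Fos exceeded Fosl2 in 8 of 31 mice although its mean was higher, since a few mice with much Fos raised its mean. Jun, Fosb, Fos and Fosl2 are thus neighbours whose levels lie within each other's spread. In WT vehicle Fos ranked next after Junb and Jund by mean, and in each of the other groups it ranked below Fosl2.

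**Figure D1:**
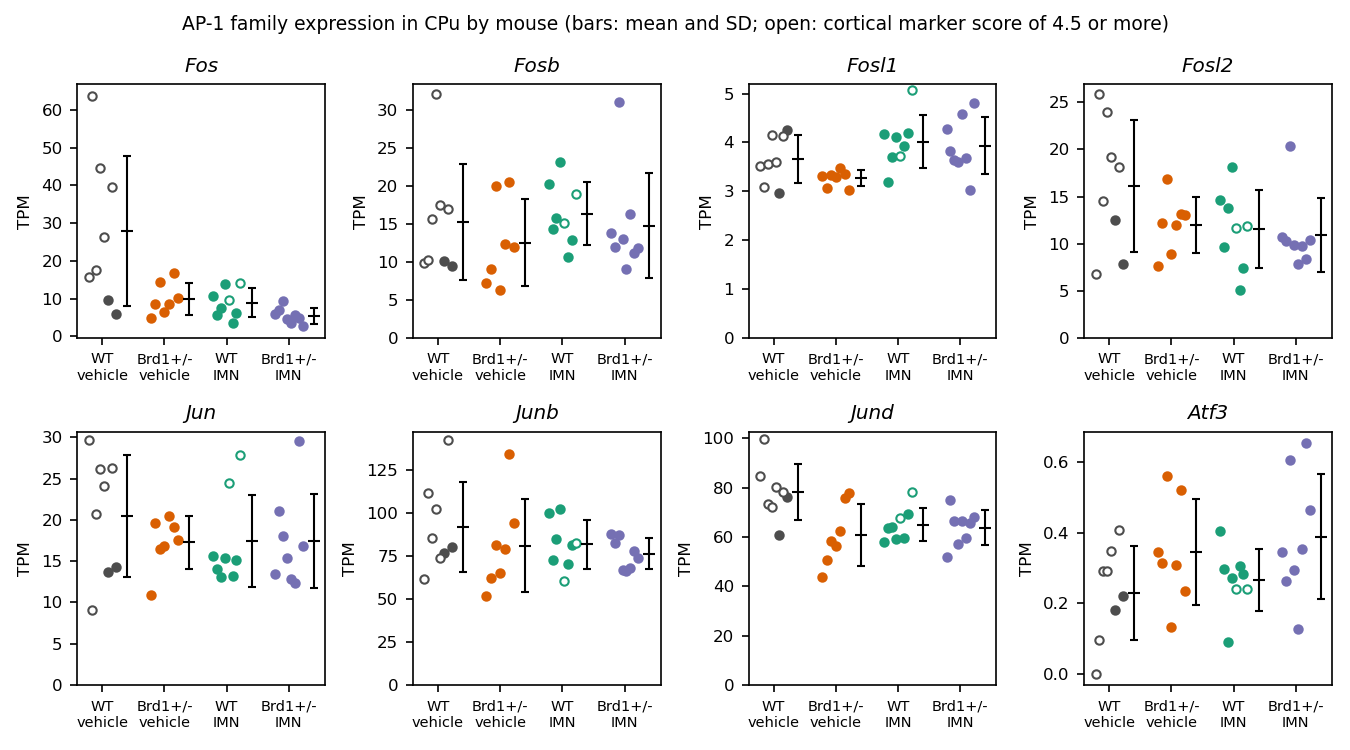
TPM of the 8 members in each mouse of the 4 groups, on linear axes with the mean and SD beside the points. Open points are the 8 mice with a cortical marker score of 4.5 or more. Fos spans 5.88 to 63.7 TPM in WT vehicle and 2.66 to 9.46 TPM in Brd1+/- IMN, and the groups overlap for every member.

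The spread between mice set the members apart as well. Fos had a coefficient of variation of 103% over all mice and a 24.0-fold range of TPM, whereas Fosl1 had a coefficient of 14.5% and a 1.71-fold range and Jund 16.9% and a 2.28-fold range. Within WT vehicle alone Fos varied 10.8-fold. In Brd1+/- vehicle, Fosl1 was the tightest member, with a coefficient of 5.00%.

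Fos, the founding member and the usual marker of recent neuronal firing, had lower levels with IMN in both genotypes. In WT vehicle mice Fos ranged from 5.88 to 63.7 TPM with a median of 21.9. In WT IMN mice it ranged from 3.43 to 14.2 with a median of 8.52. All 8 WT IMN mice lay below the WT vehicle median, but WT vehicle mouse 6 and mouse 8, at 9.56 and 5.88 TPM, lay within the IMN range. In Brd1+/- vehicle mice Fos ranged from 4.82 to 16.9 TPM with a median of 8.45. In Brd1+/- IMN mice it ranged from 2.66 to 9.46 with a median of 5.26. There 7 of 8 treated mice lay below the vehicle median, and the ranges overlapped. In bulk tissue, fewer cells that express a gene and less RNA per cell cannot be told apart.

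IMN was first compared with vehicle in Brd1+/- mice, where every punch had high striatal markers. Fos fell by 0.73 on the log2(TPM + 1) scale (SE 0.24, 95% interval -1.25 to -0.22), to 54.9% of the vehicle mean. Its limma p was 0.00835 and its adjusted p 0.527, so it passed p under 0.01 but not the FDR of 5%, and the exact permutation test gave p = 0.0180. It was the only one of 8 members past p under 0.01, where 1.83% of all 23020 genes passed and 0.964% passed downward. Of the other Fos family members, Fosb had a log2 difference of 0.24 (interval -0.31 to 0.80), Fosl2 of -0.14 (interval -0.51 to 0.24) and Fosl1 of 0.20 (interval 0.02 to 0.38). Fosl1 had an adjusted p of 0.662 in limma and an exact permutation p of 0.0106. The 3 Jun genes lay between -0.03 (Junb) and 0.09 (Jund), with Jun at -0.02 (interval -0.38 to 0.34), and Atf3 at 0.04. Fos kept its direction in all 15 fits that left out 1 mouse, with log2 values of -0.87 to -0.60, but stayed under p of 0.01 in only 4 of them, those without Brd1+/- vehicle mouse 1 or 4 or Brd1+/- IMN mouse 2 or 3. Striatal markers were also lower with IMN, in 10 of 10 genes with 1 past p under 0.01 and a median of -0.19, against 0.01 over all genes. Oligodendrocyte markers were higher in 6 of 6 genes, with a median of 0.44 and 0 at an unadjusted p under 0.05 in limma. Between genotypes they were higher in 6 of 6 under IMN (median 0.21 against -0.03) and lower in 6 of 6 under vehicle (-0.33 against -0.13). Their part was not tested. When the striatal score was a covariate, Fos gave -1.02 and stayed under p of 0.01. When the cortical score was, it gave -0.72, and the limma p rose just above 0.01. In one fit of all 4 groups and with no filter on low values Fos again gave -0.73, with limma p of 0.0526 and 0.0109, so that the call was lost.

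In WT mice the difference of Fos with IMN was of larger size, and cortical markers moved with it. Fos fell by 1.31 (SE 0.41, 95% interval -2.18 to -0.45), to 31.9% of the vehicle mean, with a limma p of 0.00533, an adjusted p of 0.141 and an exact permutation p of 0.0117. Jund, the steadily expressed partner, fell by 0.26 (SE 0.09, interval -0.44 to -0.07), with an adjusted p of 0.143 and an exact permutation p of 0.0103. These were 2 of 8 members past p under 0.01, where 6.95% of 23579 genes passed and 5.60% passed downward. All 10 cortical markers were lower and all 10 striatal markers higher with IMN in WT, with medians of -2.08 and 1.48 against -0.08 over all genes. Markers of other cell types also passed p under 0.01, the erythrocyte genes Hba-a2 (-0.57) and Hba-a1 (-0.55) among 5 with a median of -0.54, the endothelial gene Cldn5 (-0.33, 1 of 5) and Kl (0.40, 1 of 3 tested) of the choroid plexus list. Their part in the result was not tested. Without the mice of high cortical score, which leaves 2 WT vehicle and 6 WT IMN mice, 0 of 8 members passed, Fos gave -0.04, Jund -0.13 and Fosb 0.62 (adjusted p = 0.527 in limma), the largest of the 8 in that fit. Fos gave -0.67 when the cortical score was a covariate, -1.14 without WT vehicle mouse 1 and mouse 2, and -1.19 without mouse 7, none of them under p of 0.01. The 9 leave-one-out fits of 16 in which Fos stayed under p of 0.01 were those without WT vehicle mouse 1, 3, 6 or 8 or WT IMN mouse 1, 3, 4, 5 or 8. Jund stayed under it in 2 of 16, without WT vehicle mouse 6 or WT IMN mouse 8. After median-of-ratios scaling Jund gave -0.13, with the cortical score -0.15 and with the striatal score -0.12, none of them under p of 0.01. Fosb had a log2 difference of 0.17 (interval -0.29 to 0.64), Fosl1 of 0.11, Fosl2 of -0.40 (interval -0.99 to 0.18), Jun of -0.19, Junb of -0.14 and Atf3 of 0.05.

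**Figure D2:**
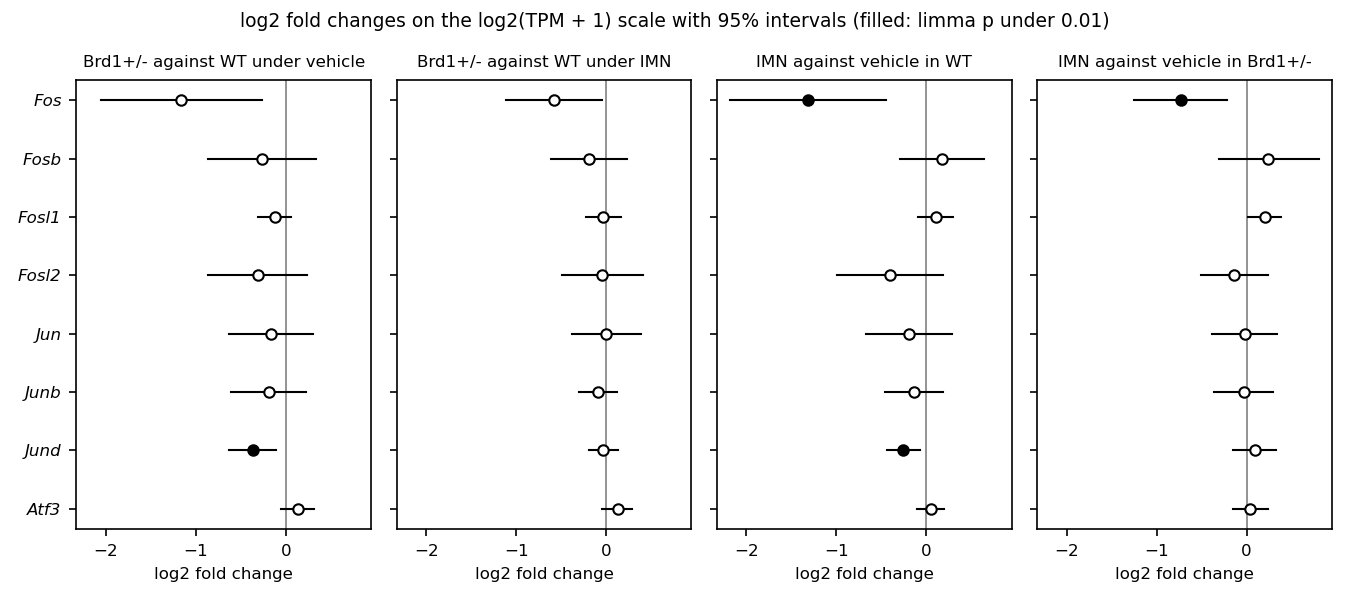
log2 fold changes of the 8 members on the log2(TPM + 1) scale with 95% intervals in the 4 comparisons, filled where the limma p was under 0.01. Fos lies left of 0 in each panel, between -1.31 and -0.58, and the interval of Fosb spans 0 in each. The panels share groups of mice and are not independent.

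The genotypes were next compared under vehicle, to ask what accompanied the Brd1 deletion alone. Jund ranged from 61.0 to 99.8 TPM (median 77.1) in WT vehicle and from 43.8 to 77.8 (median 58.3) in Brd1+/- vehicle, with 6 of 7 Brd1+/- mice below the WT median. It fell by 0.37 in Brd1+/- mice (SE 0.12, interval -0.63 to -0.11, limma p = 0.00806, adjusted p = 0.0686, exact permutation p = 0.0115). It was the only one of 8 members past p under 0.01, in a comparison where 13.6% of 23200 genes passed and 12.1% passed downward. All 7 Brd1+/- vehicle mice lay below the WT vehicle median of Fos. Fos had a log2 difference of -1.16 (SE 0.42, interval -2.05 to -0.26), a limma p of 0.0144, an adjusted p of 0.0855 and an exact permutation p of 0.0280. The other members lay between -0.31 for Fosl2 (interval -0.86 to 0.24) and 0.13 for Atf3 (interval -0.05 to 0.31).

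Both differences moved with the tissue markers, which were lower in 10 of 10 cortical genes (median -1.99) and higher in 10 of 10 striatal genes (median 1.63) in Brd1+/- vehicle mice. Without the WT mice of high cortical score, which leaves 2 against 7, Fos turned to 0.26 and Jund stood at -0.19. When the cortical score was a covariate, Fos gave -0.36 and Jund -0.26, and with the striatal score -0.52 and -0.23. Without WT vehicle mouse 1 and mouse 2, which had low striatal scores, Fos gave -0.98 and Jund -0.29. Without WT vehicle mouse 7, Jund gave -0.37 and Fos -1.04. None of these passed p under 0.01. Jund stayed under p of 0.01 in 4 of 15 leave-one-out fits, those without WT vehicle mouse 4 or 6 or Brd1+/- vehicle mouse 6 or 7. Fos passed it without WT vehicle mouse 6 (-1.32) or mouse 8 (-1.41). After median-of-ratios scaling, which sets the median of all genes from -0.13 to 0.00, Jund gave -0.18 and did not pass.

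The plot of Fos against the marker scores shows how the WT vehicle mice were spread. In the 6 WT vehicle mice with high cortical scores Fos ranged from 15.7 to 63.7 TPM with a median of 32.9, and in the other 2 it was 9.56 and 5.88 TPM. Jun, too, was higher in the 6, with a median of 25.1 TPM against 13.7 and 14.3 TPM, although mouse 2, which had the lowest striatal score, had only 9.03 TPM. Fosl1 did not separate these mice, with a median of 3.58 TPM in the 6 against 2.98 and 4.26. Over 31 mice, with group means subtracted, Fos correlated with the cortical score at r = 0.61 and with the striatal score at r = -0.56. Without WT vehicle, over 23 mice, these were 0.27 and -0.40. The points share the fixed TPM sum of each mouse.

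**Figure D3:**
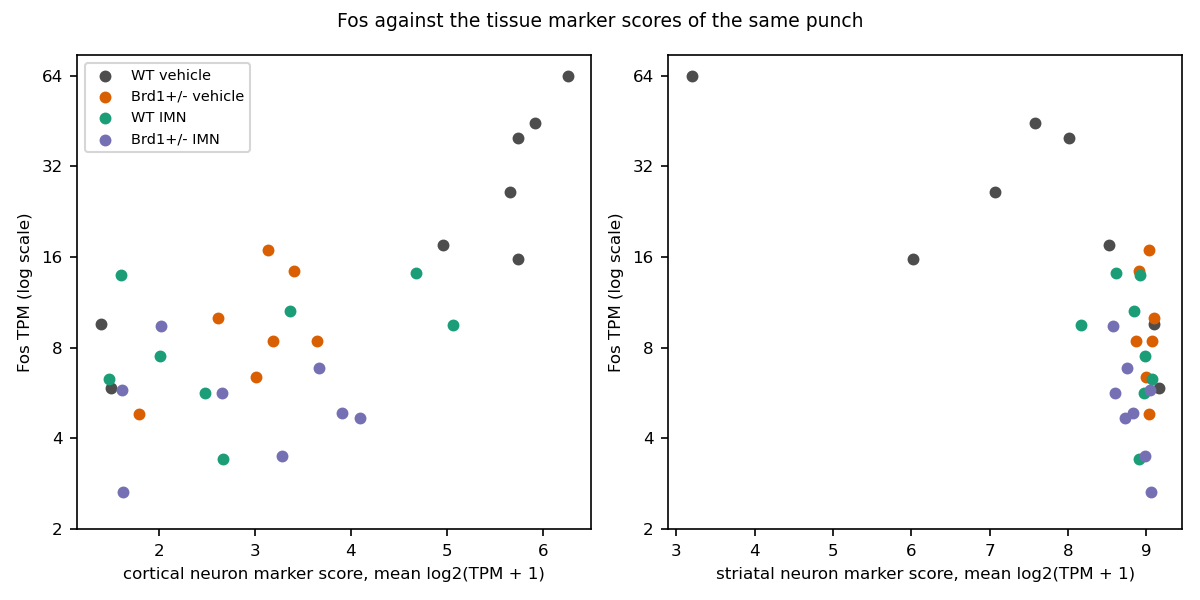
Fos TPM (log axis) against the cortical (left) and striatal (right) marker score, the mean log2(TPM + 1) of 10 genes each, in 31 mice coloured by group. The 6 WT vehicle mice with cortical scores of 4.96 to 6.26 hold Fos levels of 15.7 to 63.7 TPM, and the other 2 lie among the remaining groups.

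Under IMN, where the genotypes were more alike in cortical and striatal markers, 0 of 8 members passed p under 0.01 in limma against a background of 0.703%. Erythrocyte markers were higher in Brd1+/- mice in 5 of 5 genes, with a median of 0.49 against -0.03 over all genes and 1 past p under 0.01, Alas2 at 0.66, and their part was not tested. Fos had a log2 difference of -0.58 in Brd1+/- mice (SE 0.25, interval -1.11 to -0.05, adjusted p = 0.998, exact permutation p = 0.0532), with 7 of 8 below the WT IMN median. It passed p under 0.01 when WT IMN mouse 6, which had the lowest Fos of its group, was left out (-0.73), in 1 of 16 such fits, which ran from -0.73 to -0.47. Without the mice of high cortical score it was -0.43, and neither there nor in one fit of all groups did it pass. Jun had a difference of 0.00 (interval -0.38 to 0.39) and Jund of -0.03 (interval -0.19 to 0.13), the narrowest interval of the 8. The response to IMN was then compared between genotypes by the interaction over all mice. There 0 of 8 members passed p under 0.01 in limma against a background of 3.74%. Jund gave an interaction of 0.34 (SE 0.14, adjusted p = 0.268 in limma), and passed p under 0.01 without WT vehicle mouse 6 or Brd1+/- vehicle mouse 6 or 7, 3 of 31 such fits, which ran from 0.27 to 0.41. It was 0.20 after median-of-ratios scaling, 0.20 with the striatal score as a covariate and 0.21 without the mice of high cortical score. The interaction of Fos was 0.58 (interval -0.45 to 1.61), and it turned to -0.69 (not under p of 0.01) without the mice of high cortical score. At an unadjusted p under 0.05, limma called 2 of 8 members between genotypes under vehicle (30.9% of all genes), 1 between genotypes under IMN (3.92%), 2 with IMN in WT (23.1%), 2 with IMN in Brd1+/- mice (7.09%) and 1 for the interaction (16.2%). No member reached the FDR of 5% in these 5 fits, which 0.00428% of genes did between genotypes under IMN, 0.00424% with IMN in WT and 0% in the others. These comparisons share their groups of mice with those above, so their values stand side by side and are no independent evidence. The groups of TPM overlapped for all 8 members in all 4 comparisons of 2 groups, where 0.330% (genotype under vehicle), 0.0120% (genotype under IMN), 0.150% (IMN in WT) and 0.0959% (IMN in Brd1+/-) of 16681 genes of at least 1 TPM on average did not overlap.

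The shares of the Fos family are given as a description, with no test. Fos made up 40.1% ± 12.8 (SD, n = 8) of the summed Fos family TPM in WT vehicle, 25.6% ± 3.20 (n = 7) in Brd1+/- vehicle, 21.0% ± 4.27 (n = 8) in WT IMN and 15.5% ± 3.40 (n = 8) in Brd1+/- IMN. Fosb, whose splice form deltaFosB accumulates over repeated stimulation, made up 26.3% ± 7.63, 32.2% ± 4.56, 40.7% ± 3.02 and 41.2% ± 4.24 in the same order. Fosl2 made up 26.4% ± 5.05, 32.7% ± 4.16, 27.8% ± 4.02 and 31.2% ± 2.05. The Fos share ranged from 21.4% to 61.9% in WT vehicle, where 6 of 8 mice had high cortical scores, from 20.9% to 31.3% in Brd1+/- vehicle, from 14.8% to 28.4% in WT IMN and from 8.97% to 20.8% in Brd1+/- IMN, with overlap between genotypes and in WT, and with adjoining ranges in Brd1+/- mice. The summed Jun over the summed Fos family TPM overlapped between the groups, at 3.60 ± 1.47, 4.39 ± 0.839, 4.28 ± 1.06 and 4.80 ± 1.17.

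The ratio of Fos to Fosb in the same mouse, chosen after the values were seen and given with no test, separated vehicle from IMN in Brd1+/- mice. It ranged from 0.663 to 1.01 (median 0.823) in Brd1+/- vehicle and from 0.225 to 0.575 (median 0.372) in Brd1+/- IMN, with no overlap. Of 16680 genes taken over Fosb in the same way, 0.0120% did not overlap in this comparison, against 0.0240% with IMN in WT, 0.00600% between genotypes under vehicle and 0.00% under IMN. In WT vehicle the ratio ranged from 0.617 to 6.24 (median 1.44) and in WT IMN from 0.32 to 0.75 (median 0.507), where WT vehicle mouse 8 alone lay within the IMN range. The WT vehicle mice of low cortical score had ratios of 0.94 (mouse 6) and 0.617 (mouse 8). Fos over Fosl2 ranged from 0.63 to 1.28 in Brd1+/- vehicle and from 0.257 to 0.666 in Brd1+/- IMN, and Fos over Junb from 0.0931 to 0.176 and from 0.036 to 0.109, both with overlap. Of the 6 ratios of Fos to a member of at least 1 TPM, in 4 comparisons, Fos over Fosb in Brd1+/- mice was the only one without overlap.

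**Figure D4:**
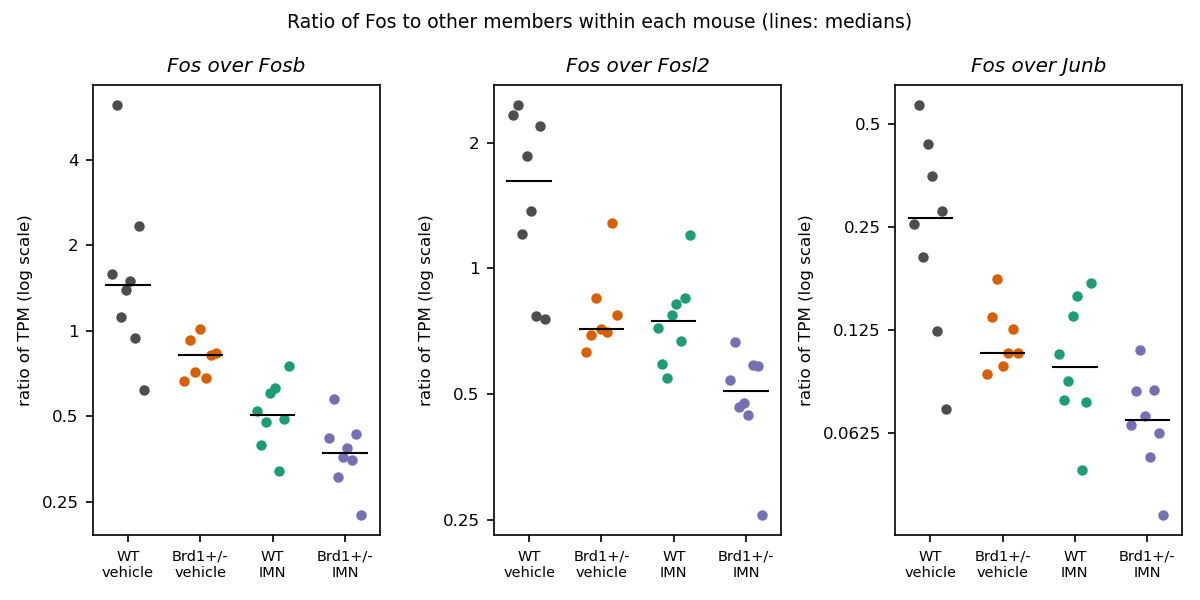
Ratio of Fos TPM to Fosb, Fosl2 and Junb TPM in each of 31 mice (log axes), with group medians as lines. Fos over Fosb lies at 0.663 or above in all 7 Brd1+/- vehicle mice and at 0.575 or below in all 8 Brd1+/- IMN mice.

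Fosb, Fosl1 and Fosl2 passed p under 0.01 in none of the 5 limma fits. Fosb ranged from 6.34 to 20.5 TPM in Brd1+/- vehicle and from 9.05 to 31.1 in Brd1+/- IMN. Fosl2, the Fos relative with slower kinetics, was 16.1 TPM ± 7.00 (SD, n = 8) in WT vehicle and 10.9 ± 3.94 (n = 8) in Brd1+/- IMN, the group means farthest apart. Fosl1 ranged from 3.03 to 3.47 TPM in Brd1+/- vehicle and from 3.03 to 4.81 in Brd1+/- IMN. In 7 of 8 Brd1+/- IMN mice it was above the vehicle median. Fosl1 overlaps Ccdc85b (median 93.3 TPM) on the other strand, so that reads of the pair cannot be told apart unless strand was used.

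Among the Jun family, Jun itself was 20.5 TPM ± 7.36 (SD, n = 8), 17.3 ± 3.19 (n = 7), 17.4 ± 5.57 (n = 8) and 17.4 ± 5.71 (n = 8) in WT vehicle, Brd1+/- vehicle, WT IMN and Brd1+/- IMN. Junb, which counters Jun at many promoters, was 91.9 ± 26.0, 81.1 ± 27.2, 81.9 ± 14.3 and 76.3 ± 8.92 TPM in the same order. Neither passed p under 0.01 in any of the limma fits. Junb spread least in Brd1+/- IMN, from 66.2 to 87.8 TPM, and most, by SD and range, in Brd1+/- vehicle, from 51.8 to 134.1. Jun overlaps its antisense gene Junos (median 1.3 TPM) and Junb overlaps Prdx2 (median 146 TPM), both on the opposite strand. Jund overlaps Gm11175, which was at a median of 0 TPM. Atf3, a stress-induced factor that pairs with Jun proteins, was at 0.229 TPM ± 0.134 (SD, n = 8), 0.345 ± 0.151 (n = 7), 0.266 ± 0.0883 (n = 8) and 0.389 ± 0.177 (n = 8), and was listed at 0 in WT vehicle mouse 1. At this level the log2(TPM + 1) scale understates its differences, and none passed p under 0.01.

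Several members varied together from mouse to mouse. With group means subtracted, over 31 mice, Fos correlated with Fosl2 at r = 0.82, with Fosb at 0.67 and with Junb at 0.64, and Fosb with Fosl2 at 0.74. Jun had lower values, with r = 0.32 to Fosb, 0.24 to Fos, 0.06 to Junb and 0.05 to Fosl2, and Fosl1 had r = 0.01 to Fos. Without WT vehicle, over 23 mice, Fos correlated with Fosb at 0.84, with Fosl2 at 0.81 and with Junb at 0.66, and Jun with Jund at 0.55, with Fos at 0.44, with Fosl2 at 0.22, with Junb at 0.19 and with Fosb at 0.18. Jun correlated with the marker scores of cortical neurons (0.53 over 31 mice, 0.67 over 23), oligodendrocytes (0.58 and 0.50), astrocytes (0.50 and 0.56) and endothelium (0.25 and 0.54). The choroid plexus and ependyma score correlated with Junb at 0.28 over 31 mice and 0.60 over 23, with Fosb at 0.36 and 0.54 and with Fos at 0.02 and 0.46. It was highest in Brd1+/- vehicle mouse 6 (2.03) and Brd1+/- IMN mouse 3 (1.68), each with the highest Fos and Fosb of its group. WT vehicle mouse 3 (1.67) and Brd1+/- IMN mouse 1 (1.64) scored nearly as high without the highest Fos or Fosb of their groups. They had Fos of 17.5 and 5.80 TPM and Fosb of 15.6 and 13.8 TPM. The defining markers of this score, Ttr and Folr1, were at 0 in at least 1 mouse of every group, and the part of the score in these values was not tested. These values are descriptions, and the points of each mouse share 1 library and its fixed sum.

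**Figure D5:**
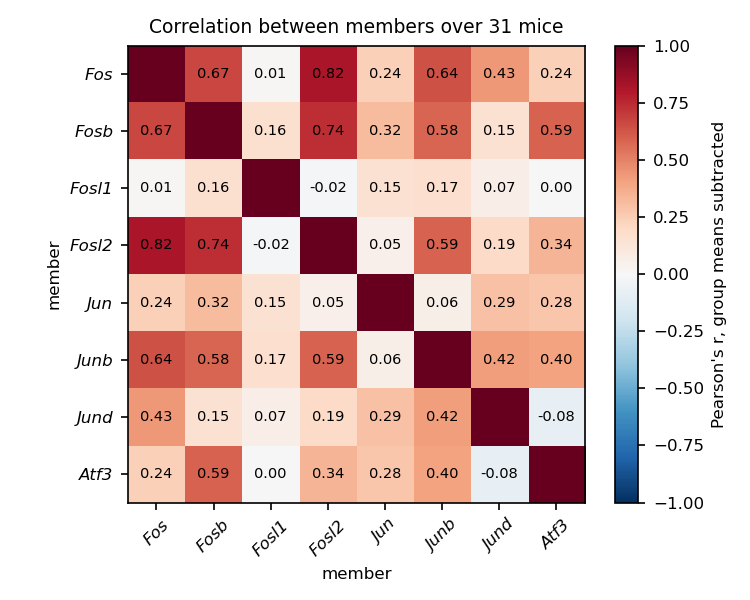
Pearson's r between the log2(TPM + 1) values of the 8 members over 31 mice, with group means subtracted. Fos, Fosb, Fosl2 and Junb form a block of 0.58 to 0.82, and Fosl1 has values of -0.02 to 0.17 with every other member.

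The genes closest to each member by the same measure, among 17384 genes of at least 1 TPM, differed between members. All 31 mice entered, among them the WT vehicle mice with their wide spread of tissue markers, and no values without that group are given. Fos was closest to Phf21b (r = 0.879), Calb2 (0.878) and Frmd6 (0.863). Fosl2 was closest to Nrsn1 (0.862), 1700016P03Rik (0.846) and Frmd6 (0.819). Junb was closest to the immediate-early genes Nr4a1 (0.866) and Egr2 (0.728), with 1700016P03Rik (0.807) between them. Fosb was closest to Nnat (0.836), Rps6ka2 (0.790) and Blcap (0.786), and Jun to Igsf21 (0.862), Gm3571 (0.847) and Spsb1 (0.818). Jund was closest to Polr2f (0.904), Pcsk1n (0.884) and Ndufs7 (0.883). Fosl1 had the weakest likeness, with D430041D05Rik at 0.705, Acvr1b at 0.651 and Junos at 0.646.

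Of 22 other immediate-early genes, 6 fell and 0 rose at p under 0.01 with IMN in Brd1+/- mice, with a median log2 difference of -0.37 against 0.01 over all genes, of which 0.964% passed downward. At an unadjusted p under 0.05 there were 11 in limma, and 0 passed the FDR of 5%. Arc, which acts at the synapse, ranged from 81.0 to 206.4 TPM in Brd1+/- vehicle and from 37.3 to 73.4 in Brd1+/- IMN, with no overlap. It fell by 1.12 (SE 0.19, adjusted p = 0.0967 in limma). The transcription factor Egr1 ranged from 181.2 to 287.9 TPM and from 135.4 to 179.8 in the same groups, also with no overlap, and fell by 0.60 (SE 0.09, adjusted p = 0.0740). Of 16681 genes of at least 1 TPM on average, 0.0959% did not overlap between these groups. Npas4, a neuron-specific factor, fell by 1.12 (SE 0.28, adjusted p = 0.370), and Dusp6, a phosphatase of ERK, by 0.45 (SE 0.10, adjusted p = 0.282). With the cortical or the striatal score as a covariate the count was also 6. In WT mice 4 of the 22 fell with IMN and 0 rose, with a median of -0.38 against -0.08 and 5.60% of all genes lower. They were Arc (-1.13), Ier2 (-1.26), Ier5 (-0.94) and the phosphatase Dusp1 (-0.54). With the cortical or the striatal score as a covariate 3 fell in each, where 1.45% and 1.28% of all genes passed in either direction. Without WT vehicle mouse 1 and mouse 2, 5 fell, where 2.55% of all genes passed. Without the mice of high cortical score, which leaves 2 WT vehicle and 6 WT IMN mice, 0 fell and 1 rose. Between genotypes under vehicle, where 12.1% of all genes were lower, 4 fell in Brd1+/- mice and 0 rose, Ier5 (-0.83), Ier2 (-1.04), Csrnp1 (-0.82) and Ier3 (-0.90), and 0 passed without those mice, with 2 at an unadjusted p under 0.05. Under IMN 1 of 22 was lower in Brd1+/- mice, Arc at -0.65 (SE 0.15, adjusted p = 0.817 in limma), where 0.703% of all genes passed in either direction. Without the mice of high cortical score and with the replicate block it was 3 of 22, where 0.734% and 0.673% of all genes passed.

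Of 22 kinases and factors upstream of AP-1, 0 passed p under 0.01 in limma with IMN in Brd1+/- mice and 0 between genotypes under IMN, where 1.83% and 0.703% of all genes did, while 2 and 1 had an unadjusted p under 0.05, as did 7.09% and 3.92% of all genes. In WT mice 3 fell with IMN, Fbxw7 (-0.61), whose product marks Jun for degradation, and the kinases Mapk10 (-0.61) and Map2k4 (-0.58) of the JNK cascade, where 5.60% of all genes were lower. With the replicate block, the cortical score or the striatal score in the fit, 0, 0 and 1 of the 22 fell. There 5.08%, 1.45% and 1.28% of all genes passed in either direction, and 8, 3 and 2 of the 22 had an unadjusted p under 0.05. Between genotypes under vehicle 3 were lower in Brd1+/- mice, Mapk10 (-0.74), Map2k4 (-0.63) and Elk4 (-0.56), a partner of serum response factor, where 12.1% of all genes were lower. Without the mice of high cortical score, 1 of the 22 rose and 0 fell with IMN in WT, and 0 passed under vehicle, with 1 at an unadjusted p under 0.05.

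Of 22 other bZIP factors, which can pair with or compete against AP-1, Mafk rose by 0.39 (SE 0.12, adjusted p = 0.442 in limma) with IMN in Brd1+/- mice and 0 fell, where 1.83% of all genes passed. With the replicate block and in one fit of all groups 0 of the 22 passed, with 2 and 1 at an unadjusted p under 0.05. With IMN in WT mice 2 fell, Atf4 (-0.55) and Ddit3 (-0.22), both of the integrated stress response, where 5.60% of all genes were lower. Under vehicle 4 were lower in Brd1+/- mice, Jdp2 (-1.50), Atf4 (-0.61), Ddit3 (-0.31) and Cebpb (-0.63), where 12.1% of all genes were lower, and after median-of-ratios scaling the count was 1. Without the mice of high cortical score 0 of the bZIP factors passed in either of these comparisons by limma, and 1 (IMN in WT) and 0 (vehicle) had an unadjusted p under 0.05. Jdp2, a repressor that dimerises with Jun, ranged from 8.44 to 88.1 TPM in WT vehicle and from 7.61 to 10.9 in Brd1+/- vehicle.

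Of 20 genes known as AP-1 targets, 15 to 17 were tested in each comparison. With IMN in Brd1+/- mice 0 passed p under 0.01 in limma, where 1.83% of all genes did, with 1 at an unadjusted p under 0.05, and with IMN in WT mice 1 did, Pdyn (1.08), which encodes the opioid precursor prodynorphin, where 6.95% of all genes passed. In WT mice, with the cortical or the striatal score as a covariate, 0 of the targets passed in limma, with 2 and 0 at an unadjusted p under 0.05. In Brd1+/- mice the same fits passed 0 and 1, with 2 and 3 at an unadjusted p under 0.05. There 2.21% and 1.48% of all genes passed p under 0.01. Under vehicle 3 were lower in Brd1+/- mice, Cdk5 (-0.39), Bdnf (-1.84) and Hmox1 (-0.55), and 2 were higher, among them Pdyn (1.09), where 13.6% of all genes passed and 12.1% were lower. After median-of-ratios scaling 1 was lower and 3 were higher, and with no filter on low values 3 were lower and 0 higher. Bdnf, which encodes a neurotrophin that the cortex supplies to the striatum, ranged from 0.0625 to 14.5 TPM in WT vehicle and from 0.140 to 1.20 in Brd1+/- vehicle. Without the mice of high cortical score 0 of the tested targets passed in limma under vehicle, with 2 at an unadjusted p under 0.05, and 2 rose with IMN in WT. Between genotypes under IMN 0 of the bZIP factors and 0 of the targets passed, with 1 and 0 at an unadjusted p under 0.05, against 0.703% and 3.92% of all genes at these thresholds. Counts this near the share of all genes say nothing about the lists.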

How the data were processed

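Total RNA of CPu punches from 31 mice was sequenced by the authors with single-end reads (BGISEQ-500). Per the submitters' processing notes, reads were checked with FastQC, trimmed with Trimmomatic, aligned to GRCm38 with HISAT2 2.1.0 and quantified with StringTie 1.3.4. The authors deposited TPM, which is scaled for gene length and to a fixed sum in each mouse (999787 to 999918), for 52636 genes. TPM holds no read depth, so no counting error is given and precision rests on the spread between mice. Whether counting used strand is not given in the sources used here.

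Symbols and positions were taken from GENCODE M21 on GRCm38, joined by identifier. For each pair of groups limma 3.58.1 in R 4.3.3 was fitted on log2(TPM + 1) with a trended prior variance. A gene entered a fit when 7 or more of its mice exceeded 0.1 TPM. The interaction was fitted over all 31 mice. Tests were two-sided, adjusted by Benjamini-Hochberg over all genes tested, and read at p under 0.01 and at an FDR of 5%, the study's thresholds. The study's edgeR test on read counts does not apply to TPM. Beside it, an exact permutation test was run on each member's log2(TPM + 1). In the simulation of IMN against vehicle in Brd1+/- mice, over 22832 genes, 151 of 200 genes changed by 0.5 (log2) came out at p under 0.01. These genes were drawn from all genes with a mean log2(TPM + 1) above 1, each with its own SD. The share therefore does not give the power for a single member, and Fos and Fosb had SEs of 0.24 and 0.26 in this comparison.

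The members and gene lists were chosen with earlier results of these data known. Named genes are all 8 members, up to 4 genes per list and comparison with the smallest p among those under 0.01, the 3 genes most correlated with each member of at least 1 TPM, and Brd1. The alternatives were another pseudocount, other filters, median-of-ratios scaling, a replicate block, one fit of all groups, marker scores as covariates, and leaving out mice. A marker score averages log2(TPM + 1) over the markers of a cell type. The values of one cortical marker are not reported here on their own.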

Additional observations from a re-analysis of the deposited data

Results flagged for a closer look

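In 4 of 32 pairs of member and group, 1 mouse lay far from the others of its group by Dixon's test, which chance alone does for about 1 in 20 groups. Fosb was 32.1 TPM in WT vehicle mouse 4, the highest of that group. Fosb was 31.1 TPM and Fosl2 20.4 TPM in Brd1+/- IMN mouse 3, which also had the highest Fos of that group, 9.46 TPM. Jun was 10.9 TPM in Brd1+/- vehicle mouse 1, the lowest of that group. The cause was not tested.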

How the results depend on the processing

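No member passed the FDR of 5% in any comparison as reported. Under some alternatives a member did. In one fit of all groups these were Fos and Jund under vehicle and Fos with IMN in WT, and with the replicate block Fos under vehicle. Without WT vehicle mouse 6 they were Fos and Jund in both comparisons, and without mouse 8 Fos in both and Jund under vehicle. Mouse 6 and mouse 8 were the 2 WT vehicle mice of low cortical score (1.39 and 1.50). Without the mice of high cortical score, Fos gave 0.26 under vehicle and -0.04 with IMN in WT. With IMN, Fos kept its negative sign in WT and in Brd1+/- mice under every alternative run, though not always with p under 0.01. Over all members, comparisons and settings that did not leave out a single mouse, 304 values kept their direction and their side of p under 0.01, 20 lost the call, 3 gained it and 36 changed sign. TPM gives no depth, so the precision of low members such as Atf3 is unknown.

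The number of members with p under 0.01 changed as follows, and where tissue scores entered the fit or mice were left out the cause was not tested. Under vehicle it was 1 as reported, 2 in one fit of all groups, and 0 after median-of-ratios scaling, with the cortical or the striatal score, or without the mice of high cortical or low striatal score. With IMN in WT it was 2 as reported, 1 after median-of-ratios scaling, with the replicate block and in one fit, and 0 with either score and without either set of mice. With IMN in Brd1+/- mice it was 1 as reported, 0 without a filter, in one fit and with the cortical score, and 2 with the striatal score, where Fosl1 gave 0.30. Leaving out 1 mouse at a time gave 0 to 2 members under vehicle, 0 to 1 under IMN, 0 to 2 with IMN in WT, 0 to 1 with IMN in Brd1+/- and 0 to 1 for the interaction.

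Same-numbered mice were not shown to be paired, since 1 of 7, 2 of 8, 2 of 8 and 3 of 7 pairs had a correlation over 0.1. With the replicate block, Fos under vehicle gave -1.41, Jund under vehicle -0.38, Fos with IMN in Brd1+/- mice -0.63 and Jund with IMN in WT -0.26. Under vehicle Fos gained p under 0.01 and Jund lost it, so that the count of 1 hides a swap, Jund with IMN in WT lost it, and Fos with IMN in either genotype kept it. Genes at an FDR of 5% under vehicle numbered 0 as reported, 3583 with the block, 4963 in one fit and 1833 at a mean TPM of at least 1. Genes at p under 0.01 under vehicle numbered 3153 as reported (2811 lower), 2138 after median-of-ratios scaling (1207 lower), 653 with the cortical and 343 with the striatal score, 188 without the mice of high cortical score and 1332 without those of low striatal score. With IMN in WT they numbered 1639 (1321 lower), 1409 (735 lower), 342, 301, 429 and 587 in the same order, and 3424 in one fit. With IMN in Brd1+/- mice they numbered 422 (222 lower) and 455 (250 lower) after median-of-ratios scaling.

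The sign changed for these members, none of which had a p under 0.01 before or after. Under vehicle median-of-ratios scaling gave Fosl1 0.03 and Jun 0.02, the cortical score Fosb 0.00, Fosl2 0.01 and Jun 0.06, and leaving out the mice of high cortical score Fos 0.26, Fosb 0.21, Fosl2 0.22 and Jun 0.27. Under IMN median-of-ratios scaling gave Fosl1 0.01 and Jund 0.01, and leaving out the mice of high cortical score Fosl1 0.01 and Jund 0.03. With IMN in WT the cortical score gave Jun 0.08, the striatal score Atf3 -0.01, leaving out the mice of high cortical score Fosl2 0.09, Jun 0.04 and Junb 0.11, and leaving out those of low striatal score Atf3 -0.03. With IMN in Brd1+/- the cortical score gave Jun 0.01, and the striatal score Fosb -0.03, Junb 0.01 and Atf3 -0.01. For the interaction median-of-ratios scaling gave Fosb -0.06, Fosl1 -0.01 and Junb -0.04, the cortical score Fosb -0.05 and Jun -0.10, and the striatal score Fos -0.08 and Atf3 0.06. Leaving out the mice of high cortical score gave Fos -0.69, Fosb -0.38, Fosl2 -0.23, Jun -0.06 and Junb -0.14, and leaving out those of low striatal score Atf3 0.07. Leaving out 1 mouse also changed the sign under IMN for Fosl1 (-0.06 to 0.01), Fosl2 (-0.18 to 0.05), Jun (-0.11 to 0.10) and Jund (-0.06 to 0.01), with IMN in Brd1+/- for Jun (-0.13 to 0.04) and Junb (-0.13 to 0.10), and in the interaction for Fosb (-0.09 to 0.20) and Atf3 (-0.04 to 0.04).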
